A study of Mus musculus with 6 samples.

Results

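The colony-stimulating factors and their receptors were examined as a group of 9 genes: the ligand genes Csf1, Csf2 and Csf3 and the receptor genes Csf1r, Csf2ra, Csf2rb, Csf2rb2, Csf3r and Flt3. They were taken by gene name from the 23398 genes of the series, and all 9 were found, each with a single entry. The samples were mouse dendritic cells grown in culture from bone marrow (BMDC), 3 libraries from cells given vehicle and 3 from cells given Ca(OH)2 nanoparticles, each for 12 hours. All cells were cultured in DMEM with serum and antibiotics. The cytokine used to derive them, the mouse strain, age and sex, and the particle dose are not given in the sources used here, nor is it stated whether the libraries of a group came from separate animals or cultures. The p-values therefore measure the spread between these libraries, which may be technical.

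Colony-stimulating factors are secreted proteins that keep myeloid cells alive and direct their growth and maturation. Csf1 encodes macrophage colony-stimulating factor (M-CSF), whose receptor is the tyrosine kinase Csf1r. Csf2 encodes granulocyte-macrophage colony-stimulating factor (GM-CSF), the cytokine most used to grow dendritic cells from marrow, which binds the alpha chain Csf2ra and signals through the common beta chain Csf2rb. Csf2rb2 is a mouse duplicate of the beta chain gene that serves interleukin-3 only. Csf3 encodes granulocyte colony-stimulating factor (G-CSF), whose receptor Csf3r is best known from neutrophils, and Flt3 is a receptor tyrosine kinase of progenitors and of dendritic cells that arise under Flt3 ligand.

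With nanoparticles, 2 of the 3 ligand genes rose from almost no reads, Csf3 to a mean of 36.7 FPKM (fragments per kilobase of gene, on the authors' scale between libraries) and Csf2 to 1.76 FPKM. The G-CSF receptor gene Csf3r rose from 0.586 to 4.21 FPKM. The abundant receptor genes Csf1r, Csf2ra, Csf2rb and Csf2rb2 and the ligand gene Csf1 did not pass the test over all 6 libraries. Flt3 did not exceed 0.0793 FPKM in any library.

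The mRNAs of the induced ligands carry the AU-rich pentamer ATTTA in their 3' untranslated regions, an element known from unstable cytokine mRNAs, and the densest stretch of 30 bases in each is shown because these are the ligand genes that rose. Capitals mark the pentamers, which overlap in Csf2. The sequences are those of the GENCODE M21 transcripts with the longest coding part.
Csf2: tttttaaatATTTATTTATTTATTTATTTA
Csf3: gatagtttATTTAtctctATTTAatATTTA
The 3' untranslated region of Csf2 is 317 bases long and holds 9 pentamers and 4 copies of the longer form TTATTTATT (sense strand only, overlapping copies counted). That of Csf3 is 669 bases long with 6 pentamers, and that of Csf1, at 2111 bases, holds 4. Neither Csf3 nor Csf1 holds the longer form. Among 9603 tested genes with such a region (median 943 bases), 66.1% hold at least 1 pentamer, 25.8% hold at least 4, and 0.489% hold 3 or more copies of the longer form. The regions of Csf2ra, Csf2rb, Csf2rb2 and Csf3r hold 0 pentamers and that of Flt3 holds 1. Csf1r was not analysed here for this feature.

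Csf2rb and Csf2rb2 lie beside each other and are close copies, which bears on every value given for them. Csf2rb is a gene of chromosome 15 (plus strand, 78325752 to 78353847), and Csf2rb2 sits on the minus strand from 78282507 to 78305721 (GENCODE M21, GRCm38). Of 2631 aligned coding bases, 2505 (95.2%) are identical, with a longest identical run of 242 bases. The window of 60 coding bases in which they differ most is shown because it holds the most letters that can tell their reads apart. The 13 differing bases are in capitals.
Csf2rb: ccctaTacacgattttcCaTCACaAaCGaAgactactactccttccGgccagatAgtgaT
Csf2rb2: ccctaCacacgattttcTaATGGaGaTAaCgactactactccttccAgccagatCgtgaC
The window spans coding bases 304 to 363 of Csf2rb and 307 to 366 of Csf2rb2. Of all 50-base windows of the Csf2rb2 transcript, 19.0% occur unchanged in the Csf2rb transcript, and of its 100-base windows 7.20% do. How the authors assigned reads that fit both genes is not given in the sources used here, so the separate levels of the pair are uncertain and their sum is given as well.

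Recovered library totals, from multiplying FPKM by gene length and by 1 scale per library, were 17295815 to 21986223 reads. Nanoparticle library 1 stood apart: across tested genes its log2 values correlated at 0.928 and 0.942 with the other nanoparticle libraries, against 0.990 between those and 0.993 to 0.994 between vehicle libraries (genes are not independent replicates). Member results that rest on it are therefore given with and without it. Of the 10 dendritic cell markers, 9 reached 1 FPKM in some library, led by Cd74 (the MHC class II invariant chain), and their sum was 6107 to 6545 FPKM in vehicle, 3376 in nanoparticle library 1 and 7058 and 7716 in libraries 2 and 3. The sum was carried by Cd74 and the MHC class II genes H2-Ab1 and H2-Aa, none of which was called over all libraries. Of the 8 dendritic markers tested, 4 were called lower and 0 higher (median log2 change -0.51). Of all tested genes, 16.2% were called lower and 17.0% higher. Mean levels went from 6.59 to 3.08 FPKM for Clec9a and from 6.92 to 0.786 for Clec10a. They went from 3.97 to 2.30 FPKM for Zbtb46 and from 5.69 to 0.0254 for Cd209a. Without nanoparticle library 1, 5 of the markers were called lower and 1 higher, beside 30.5% and 34.3% of all tested genes. The higher marker was Cd74 (log2 change 0.29, limma adjusted p = 0.0118). Siglech and Xcr1 did not pass the filter and were not tested. Siglech stayed under 1 FPKM. Xcr1 was higher in every nanoparticle library, at 0.0902 to 0.181 FPKM in vehicle and at 2.21, 0.828 and 0.711 FPKM in nanoparticle libraries 1 to 3. Macrophage markers were present as well, with 10 of 11 at 1 FPKM or more and a sum of 997 to 1134 FPKM in vehicle and 872 to 1105 with nanoparticles. In bulk samples, fewer cells of a type and less RNA per cell cannot be told apart.

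**Figure D1:**
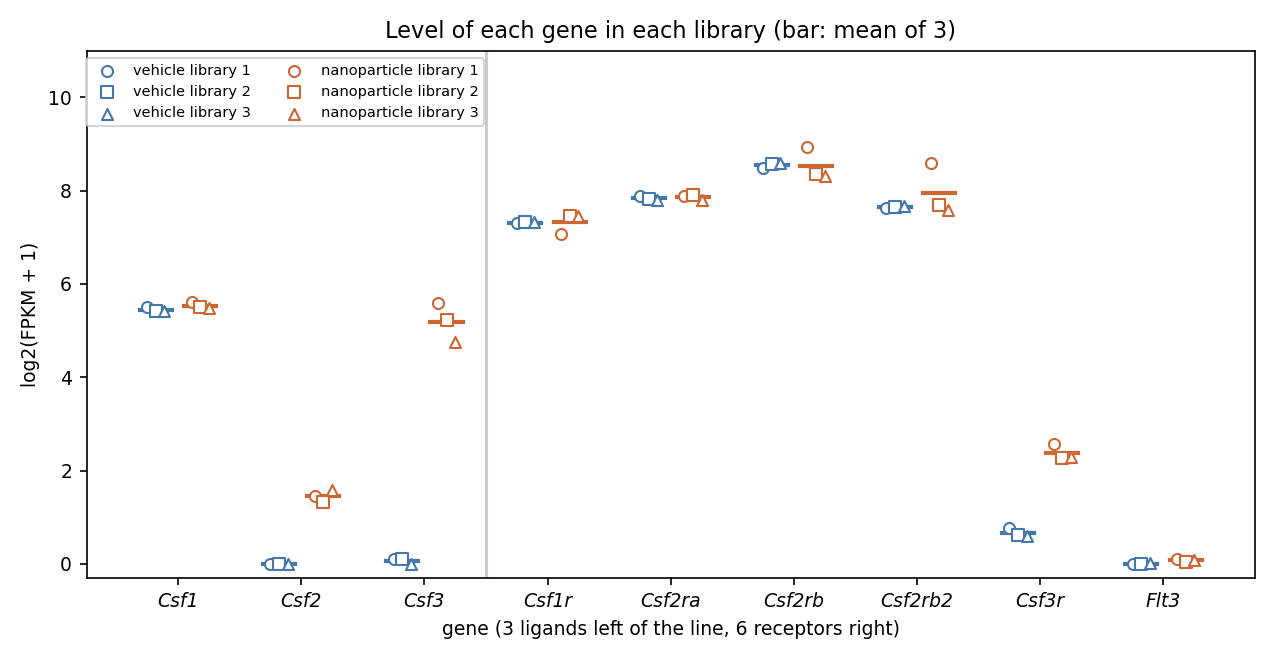
Level of each of the 9 genes in each of the 6 libraries, as log2(FPKM + 1), with the 3 ligand genes on the left and the 6 receptor genes on the right; bars are means of 3 libraries. Csf2, Csf3 and Csf3r are higher in all nanoparticle libraries than in any vehicle library, and nanoparticle library 1 (orange circle) is the highest for Csf2rb and Csf2rb2 and the lowest for Csf1r.

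The comparison of nanoparticle with vehicle libraries asks which transcripts the particles change. It was made with limma on log2(FPKM + 1) over the 10682 genes that reached 1 FPKM in 3 libraries or more, and a gene was called at a Benjamini-Hochberg adjusted p under 0.05 over all of them. Of the 9 genes, 8 passed this filter and Flt3 did not. Of the 8, 3 were called, all higher, beside 33.2% of all tested genes called in either direction and 17.0% called higher, so the count says nothing particular about these genes. Csf2, Csf3 and Csf3r were under 1 FPKM in every vehicle library and entered the test through the nanoparticle libraries alone, which means that they had to be higher there. The groups did not overlap in the same 3 of the 8 genes, beside 52.1% of all tested genes. Each log2 change below is a difference of mean log2(FPKM + 1), so for a gene near 0 FPKM it is smaller than the true log2 ratio.

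Csf3 showed the largest change of the 9 genes. It is a gene of chromosome 11 (plus strand, 98701263 to 98703629, ENSMUSG00000038067, protein coding). Its level was 0.0710, 0.0714 and 0 FPKM in vehicle libraries 1 to 3, which rest on 2, 2 and 0 reads, and 47.5, 36.3 and 26.1 FPKM in nanoparticle libraries 1 to 3, which rest on 1097, 849 and 712 reads. The vehicle libraries were all at or under 3 reads, the level treated as the floor, while every nanoparticle library was far above it. The ratio of the summed reads, corrected for the library scale, was 773 (95% exact interval 301 to 2838, counting error only). In the limma fit this was a log2 change of 5.13 (SE 0.21, adjusted p = 4.4e-05), and it was 4.93 without nanoparticle library 1, which had the highest level.

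Csf2, the GM-CSF gene, rose as well but reached a far lower level. It is a gene of chromosome 11 (minus strand, 54247271 to 54249667, ENSMUSG00000018916, protein coding), and an antisense gene model, Gm12223, overlaps it. No read was recovered in any vehicle library, and 23, 20 and 31 reads were recovered in nanoparticle libraries 1 to 3, or 1.76, 1.51 and 2.01 FPKM. Against a floor of 3 reads per vehicle library, Csf2 was at least 9.48-fold higher with nanoparticles. The limma fit gave a log2 change of 1.46 (SE 0.11, adjusted p = 2.6e-04), and nanoparticle library 1 lay between the other nanoparticle libraries. The mean level of Csf2 per kilobase, 1.76 ± 0.250 FPKM (SD, n = 3), stood beside 36.7 ± 10.7 FPKM (SD, n = 3) for Csf3 in the same libraries.

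Csf1, the third ligand gene, was expressed in all libraries. It is a gene of chromosome 3 (minus strand, 107741048 to 107760469, ENSMUSG00000014599, protein coding). Its level was 44.3, 41.6 and 42.1 FPKM in vehicle and 48.0, 44.5 and 43.9 FPKM in nanoparticle libraries, on 3891 to 4660 reads each. The ranges overlapped, and the log2 change was 0.09 (95% interval -0.15 to 0.32, limma adjusted p = 0.527). In nanoparticle library 1 Csf3, at 47.5 FPKM, came level with Csf1 at 48.0 FPKM, and in libraries 2 and 3 it stayed below.

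Csf3r, the G-CSF receptor gene, rose from a low level. It is a gene of chromosome 4 (plus strand, 126024550 to 126044440, ENSMUSG00000028859, protein coding). It was at 0.695, 0.545 and 0.518 FPKM in vehicle (50, 39 and 39 reads) and at 4.90, 3.85 and 3.87 FPKM with nanoparticles (289, 230 and 269 reads). The groups were far apart, and the mean was 7.18-fold higher on the FPKM scale. On the log2 scale Csf3r changed by 1.71 (SE 0.12, limma adjusted p = 2.3e-04), and by 1.62 without nanoparticle library 1. With both genes of the pair higher, Csf3 exceeded its receptor gene per kilobase in every nanoparticle library, by 9.70, 9.43 and 6.76 times, whereas in vehicle it was at or under 0.131 times the receptor.

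Csf3r is a neutrophil gene above all, so the neutrophil markers are given beside it. Their sum was 35.1 to 39.8 FPKM in vehicle and 51.0, 111 and 125 FPKM in nanoparticle libraries 1 to 3, most of it from S100a8 (33.4 to 36.0 FPKM in vehicle, 50.1 to 109 with nanoparticles), which monocytes and macrophages also express. Of the 11 markers, 7 stayed under 1 FPKM in every library, among them Ly6g, Elane, Mpo and Cxcr2. The other 4 were S100a8, S100a9, Ngp and Camp. Among the 7, Cxcr2 was lower in every nanoparticle library, at 0.395 to 0.801 FPKM in vehicle and at 0.0201, 0.139 and 0 FPKM in nanoparticle libraries 1 to 3. S100a9, the partner of S100a8, was at 0.962 to 1.65 FPKM in vehicle and at 0.352, 13.2 and 10.2 FPKM in nanoparticle libraries 1 to 3, and the granule genes Ngp (0.0501, 4.30 and 3.23 FPKM) and Camp (0.242, 1.83 and 1.99 FPKM) split those libraries likewise, from at most 0.901 and 0.190 FPKM in vehicle. S100a8 was called higher (limma log2 change 1.16, adjusted p = 0.0216), and S100a9 only without library 1 (1.47, adjusted p = 0.246, against 2.54, adjusted p = 4.0e-05). Of all tested genes, 17.0% were called higher over all libraries and 34.3% without library 1. Stromal cells are a known source of G-CSF and M-CSF. Of the 8 stromal markers, 6 stayed under 1 FPKM in every library or were not listed, with Col1a1 and Col1a2 at 0 in all vehicle libraries. The other 2, Dcn and Pdgfrb, were higher in every nanoparticle library: Dcn was at 0 to 0.0164 FPKM in vehicle and at 2.39, 0.311 and 0.0889 FPKM in nanoparticle libraries 1 to 3, and Pdgfrb at 0 to 0.0553 FPKM and at 1.29, 1.03 and 0.834 FPKM. The stromal sum was 0.0401 to 0.125 FPKM in vehicle and 0.923 to 3.83 FPKM with nanoparticles. Of the 7 mast cell and basophil markers, 6 stayed under 1 FPKM or were not listed, and so did 8 of the 9 lymphoid markers, all but Il7r. The part of such cells in these results was not tested.

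The promoter of Csf3r, the receptor gene that rose, is shown with its match to the PU.1 motif in capitals; PU.1, encoded by Spi1, is the myeloid factor known to act at colony-stimulating factor receptor genes. The window is chr4:126024409-126024708 on the plus strand (GRCm38.p6), from the RefSeq promoters. The RefSeq start lies 109 bases downstream of the GENCODE start, so the marked letters are upstream of the former but begin 23 bases downstream of the latter, inside the gene as placed above.
Csf3r: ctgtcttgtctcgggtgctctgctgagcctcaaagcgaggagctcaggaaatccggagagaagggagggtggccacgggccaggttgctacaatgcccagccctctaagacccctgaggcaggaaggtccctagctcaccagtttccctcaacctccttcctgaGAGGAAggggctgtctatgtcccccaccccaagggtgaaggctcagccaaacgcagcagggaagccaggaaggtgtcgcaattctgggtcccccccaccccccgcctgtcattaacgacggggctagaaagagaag
Promoters of 6 of the 9 genes were searched on both strands: Csf1, Csf2, Csf2ra, Csf2rb2, Csf3r and Flt3. The PU.1 motif GAGGAA occurred once in Csf3r and at 2 places each in Csf2ra and Csf2rb2, and 28.3% of all 32851 windows hold it. The kappaB form GGANTTTCC occurred once, in Csf1 (1.25% of windows), and the C/EBP form TTGCNNAA once, in Csf2 (10.8%). The forms GGGANTTCC (kappaB, 1.68%), TGANTCA (AP-1, 7.81%), GAGATTCC (CK-1, 0.904%) and TGTGGT (RUNX, 16.8%) occurred in none of the 6. The RefSeq start of Csf2 lies 232 bases upstream of the GENCODE start, so its window leaves out the bases next to the latter.

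The GM-CSF receptor genes Csf2ra and Csf2rb, and the interleukin-3 beta chain gene Csf2rb2, were among the most abundant transcripts of these cells. By mean FPKM in vehicle, Csf2rb ranked 91, Csf2ra 158 and Csf2rb2 181 among all listed genes. Csf2ra, the alpha chain that gives the receptor its specificity for GM-CSF, was at 236, 225 and 221 FPKM in vehicle and 234, 239.5 and 222 FPKM with nanoparticles. These ranges overlapped almost entirely, and the log2 change was 0.03 (95% interval -0.25 to 0.30, limma adjusted p = 0.878). Csf2ra (ENSMUSG00000059326, protein coding) is a gene of chromosome 19 (minus strand, 61223957 to 61228429).

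Csf2rb (ENSMUSG00000071713, protein coding), the common beta chain gene, split the nanoparticle libraries. It was at 356, 379 and 384 FPKM in vehicle libraries 1 to 3, at 492 FPKM in nanoparticle library 1, and in libraries 2 and 3 at 325 and 317 FPKM. Library 1 thus lay above all vehicle libraries and libraries 2 and 3 lay below them. Over all 6 libraries the log2 change was -0.01 (95% interval -0.50 to 0.48, limma adjusted p = 0.974). Without nanoparticle library 1 it was -0.21 (SE 0.05, limma adjusted p = 0.0130), a call toward lower expression that rests on leaving that library out, in a comparison in which 64.8% of all tested genes were called.

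Csf2rb2 (ENSMUSG00000071714, protein coding), the interleukin-3 beta chain gene, was at 198, 201 and 204 FPKM in vehicle and at 387, 206 and 191 FPKM in nanoparticle libraries 1 to 3. Library 1 held nearly the sum of any pair of vehicle libraries, while libraries 2 and 3 lay on either side of the vehicle range. The log2 change was 0.30 (95% interval -0.37 to 0.97, limma adjusted p = 0.453) and -0.02 without library 1. The sum of both beta chain genes averaged 574 ± 18.3 FPKM over the vehicle libraries and 639 ± 208 FPKM over the nanoparticle libraries (SD, n = 3 each), reaching 879 FPKM in library 1 against 532 and 508 FPKM in the other nanoparticle libraries. The ratio of Csf2rb2 to Csf2rb separated the groups: it was 0.555, 0.531 and 0.532 in vehicle and 0.788, 0.634 and 0.601 with nanoparticles. All 3 nanoparticle libraries had more Csf2rb2 relative to Csf2rb than any vehicle library, including libraries 2 and 3, in which both levels were near or below those of vehicle. A ratio within a library does not depend on the scale between libraries. It does depend on how reads that fit both genes were assigned, so it shares the uncertainty of the separate levels. Among single genes, 52.1% of those tested had groups that did not overlap, and no such share was computed for ratios.

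**Figure D2:**
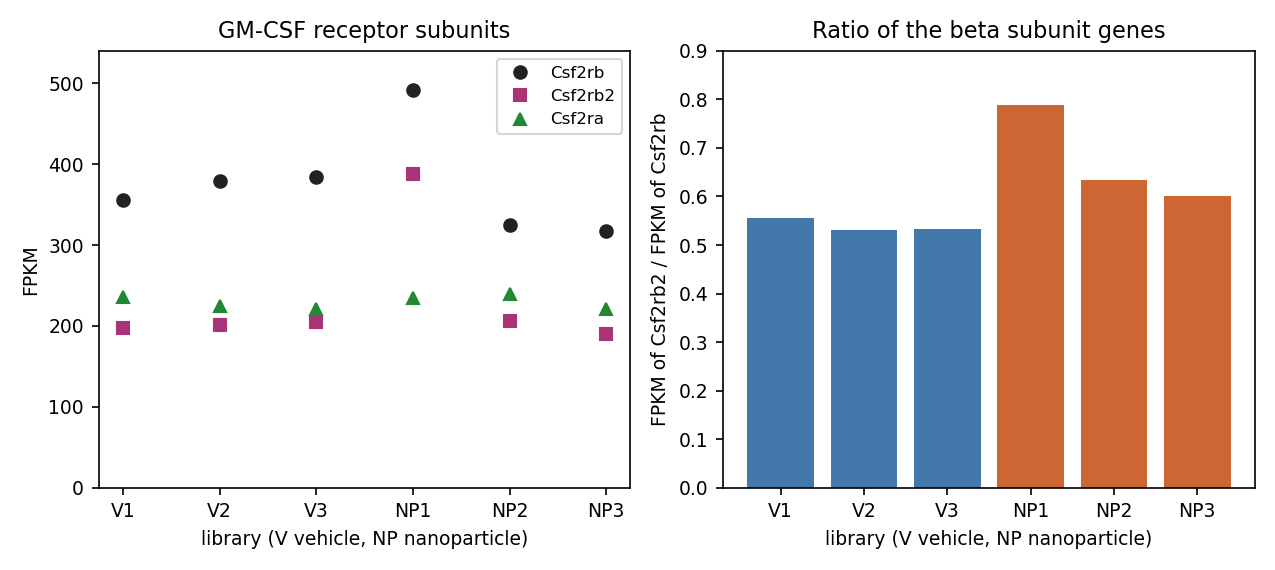
Left, FPKM of the GM-CSF receptor genes Csf2rb and Csf2ra and the interleukin-3 beta chain gene Csf2rb2 in each vehicle (V) and nanoparticle (NP) library. Right, the ratio of Csf2rb2 to Csf2rb in the same libraries. Csf2ra is flat at 221 to 239.5 FPKM, both beta chain genes peak in nanoparticle library 1, and the ratio lies at 0.531 to 0.555 in vehicle and 0.601 to 0.788 with nanoparticles.

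Csf1r, the M-CSF receptor gene that marks macrophages and monocytes, split the nanoparticle libraries the other way. It is a gene of chromosome 18 (plus strand, 61100598 to 61132149, ENSMUSG00000024621, protein coding). It was at 158, 159 and 159 FPKM in vehicle, at 133 FPKM in nanoparticle library 1, and higher in libraries 2 and 3, at 175 and 174 FPKM. The vehicle libraries were almost equal, library 1 lay below them and libraries 2 and 3 above. The log2 change was 0.01 over all libraries (95% interval -0.34 to 0.36, limma adjusted p = 0.966) and 0.14 without library 1 (SE 0.04, limma adjusted p = 0.0307). Without that library 34.3% of all tested genes were called higher. Hmgxb3, on the opposite strand, overlaps Csf1r and was at 3.02 to 6.98 FPKM.

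Flt3 was at or under 3 reads in all vehicle libraries and in nanoparticle library 2, and little above that in the other libraries. It is a gene of chromosome 5 (minus strand, 147330741 to 147400489, ENSMUSG00000042817, protein coding). Vehicle libraries held 0, 0 and 1 reads and nanoparticle libraries 8, 3 and 7 reads, or 0.0793, 0.0294 and 0.0588 FPKM. The nanoparticle libraries were all higher, with a ratio of summed reads of 20.9 (95% exact interval 3.30 to 872, counting error only). With no filter on low values Flt3 entered the test and was not called (log2 change 0.07, limma adjusted p = 0.108). Its ligand gene Flt3l was at 0.774 FPKM or less in every library.

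Per kilobase, the order of mean levels in vehicle was Csf2rb, Csf2ra, Csf2rb2, Csf1r, Csf1, Csf3r and then Csf3, Flt3 and Csf2. The ranges of neighbouring genes did not overlap from Csf2rb down to Csf3r, and Csf3, Flt3 and Csf2 were at or under 3 reads. With nanoparticles the order of means was Csf2rb, Csf2rb2, Csf2ra, Csf1r, Csf1, Csf3, Csf3r, Csf2 and Flt3. There, Csf2rb2 overlapped both Csf2rb and Csf2ra, and Csf1 and Csf3 overlapped, while the other neighbours were separate.

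**Figure D3:**
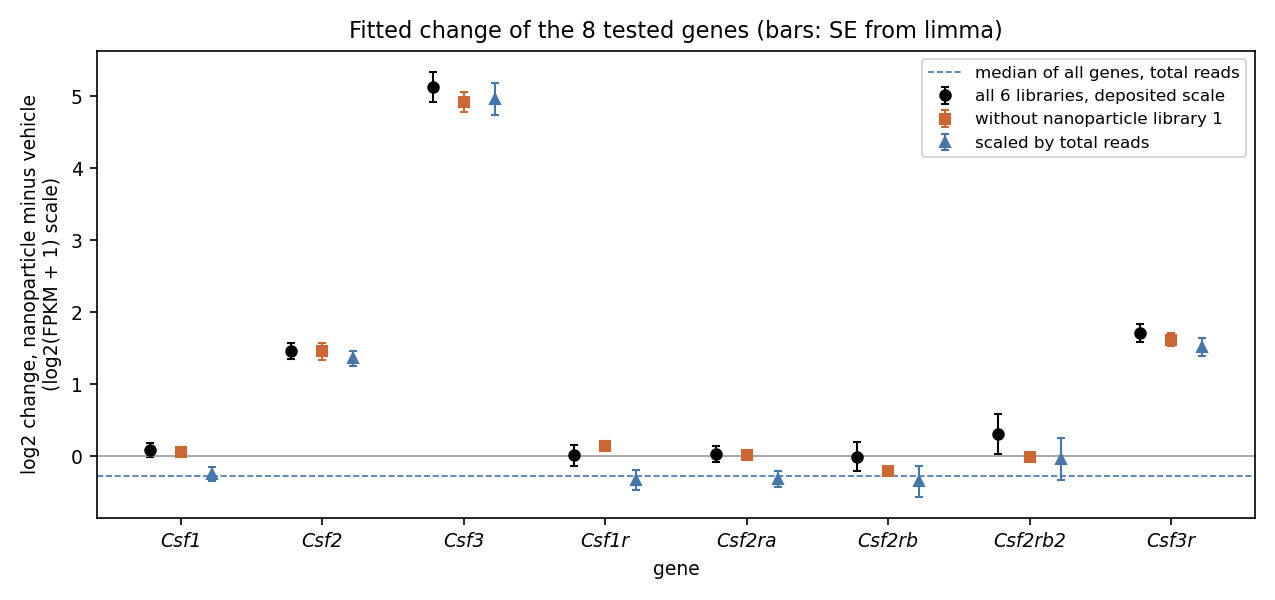
Fitted log2 change (nanoparticle minus vehicle, log2(FPKM + 1) scale) of the 8 tested genes with all 6 libraries, without nanoparticle library 1, and with libraries scaled by total reads; bars are SE. Csf2, Csf3 and Csf3r stay between 1.36 and 5.13 in all 3 versions, and the other 5 genes lie between -0.35 and 0.30, with the median of all genes at -0.28 (dashed) when scaled by total reads.

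For 4 of the 5 tested genes that were not called, all but Csf2rb, the sign of the change depends on the scale between libraries. Scaled by total reads, the whole distribution shifted, with a median over tested genes of -0.28 where it had been 0.00. Csf1 (-0.25), Csf1r (-0.33), Csf2ra (-0.32) and Csf2rb (-0.35) lay close to that median, Csf2rb2 (-0.04) lay above it, and none of these 5 was called. Csf2, Csf3 and Csf3r, which had entered the test through the nanoparticle libraries alone, were called higher on this scale too.

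Genes whose profile over the 6 libraries was nearest to each of the 8 genes were found by the root mean square difference of log2(FPKM + 1), centred on the vehicle mean. Csf3 had no near match: the closest were Ccr7, the lymph node homing receptor (difference 0.28), and Ifit3b, an interferon-induced gene (0.30). Csf3r was closest to H2-M3, a nonclassical MHC class I gene (0.07), and Trafd1 (0.07). Csf2 was closest to Psme1, a proteasome activator subunit (0.06), and Sh3bp4 (0.07). The pseudocount compresses the changes of low genes, so these matches do not mean equal fold changes. Mean levels went from 15.3 to 52.1 FPKM for H2-M3 but from 0.586 to 4.21 FPKM for Csf3r. Psme1 went from 45.2 to 132 FPKM, whereas Csf2 rose from no reads in vehicle to 1.76 FPKM. Csf2rb2 was closest to Pogk (0.02) and Ccdc88a (0.04), and Csf2rb to Zfp746 (0.03) and Fmn1 (0.04). Csf1 was closest to Pkm and Ddx5, Csf1r to Ptp4a2 and Rab34, and Csf2ra to Pnpla2 and Rbm19, each at 0.02 to 0.03. For these 3 flat genes, 1924 to 2357 genes lay within 0.2, so such a likeness is common. Within the same distance lay 1396 genes for Csf2rb, 359 for Csf2rb2, 85 for Csf3r, 81 for Csf2 and 0 for Csf3.

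Related receptors and ligands were mostly low. Il3ra, the interleukin-3 receptor alpha chain that pairs with both beta chains, rose from 10.1 ± 0.724 to 20.7 ± 2.23 FPKM (SD, n = 3 in each group, limma log2 change 0.96, adjusted p = 0.0016). It was at 10.7, 10.4 and 9.31 FPKM in vehicle and 18.3, 21.2 and 22.6 FPKM with nanoparticles, so the groups were well separated. Kit, the stem cell factor receptor, was at 1.23 to 1.35 FPKM in vehicle and 0.710 to 1.09 FPKM with nanoparticles, lower in all 3 libraries. It was not called over all libraries (limma adjusted p = 0.0854), but was called lower without nanoparticle library 1 (log2 change -0.40, limma adjusted p = 0.0082) and when scaled by total reads (-0.48, adjusted p = 0.0170). In these alternatives 30.5% and 33.8% of all tested genes were called lower. Kitl, its ligand, did not exceed 0.808 FPKM.

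Of the 18 genes that carry the signal from these receptors, all were tested, and 6 were called higher, 4 lower and 8 not at all, with a median log2 change of 0.14 against 0.00 for all genes. Over all tested genes, 33.2% were called, 17.0% higher and 16.2% lower. Stat5a, a transcription factor switched on by GM-CSF, rose from 5.25 ± 0.619 to 20.7 ± 5.05 FPKM (SD, n = 3 in each group, limma log2 change 1.77, adjusted p = 9.2e-04). The phosphoinositide 3-kinase genes Pik3cd and Pik3cg fell, Pik3cd from 43.2 ± 0.941 to 19.7 ± 2.5 FPKM and Pik3cg from 13.5 ± 0.679 to 7.34 ± 0.775 FPKM (SD, n = 3 in each group, limma log2 changes -1.10 and -0.80, adjusted p = 0.0011 and 0.0023). Without nanoparticle library 1, 8 of the 18 were called in each direction, where 34.3% of all tested genes were called higher and 30.5% lower (64.8% in all). Scaled by total reads 4 were higher and 6 lower, where 10.4% of all tested genes were higher and 33.8% lower (44.2% in all). These shares are the background for the counts of the lists that follow as well.

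Of 13 negative regulators, 4 were called higher, 2 lower and 7 not at all (median log2 change -0.13), beside 33.2% of all tested genes called. Socs1 and Socs3, inhibitors of cytokine receptor signaling, rose from 17.0 ± 0.479 to 87.5 ± 20.0 FPKM and from 39.2 ± 1.79 to 206 ± 54.7 FPKM (SD, n = 3 in each group, limma log2 changes 2.27 and 2.33, adjusted p = 3.8e-04 and 4.1e-04). Socs1 was lowest and Socs3 highest in nanoparticle library 1 among the 3 nanoparticle libraries, at 64.8 and 269 FPKM. Inpp5d, the lipid phosphatase SHIP1, fell from 24.3 ± 0.645 to 10.4 ± 0.854 FPKM (SD, n = 3 in each group, limma log2 change -1.15, adjusted p = 4.7e-04). Without nanoparticle library 1, 5 were called in each direction (64.8% of all tested genes were called there), and scaled by total reads 3 were higher and 5 lower (44.2%).

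Of 11 genes known to respond to GM-CSF or to signal transducers of the STAT family, 5 were called higher, 1 lower and 5 not at all (median log2 change 0.58), beside 17.0% of all tested genes called higher and 16.2% lower. The chemokine gene Ccl22 rose from 154 ± 37.6 to 1535 ± 430.1 FPKM (SD, n = 3 in each group, limma log2 change 3.30, adjusted p = 5.2e-04). Pim1, a survival kinase, and Mcl1, a BCL-2 family survival gene, rose from 81.6 ± 1.40 to 193 ± 14.9 FPKM and from 139 ± 1.91 to 271 ± 18.4 FPKM (SD, n = 3 in each group, limma log2 changes 1.23 and 0.96, adjusted p = 5.7e-04 and 0.0015). Without nanoparticle library 1, 6 were higher and 2 lower (34.3% and 30.5% of all tested genes), and scaled by total reads 4 were higher and 2 lower (10.4% and 33.8%).

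Of 10 transcription factors known to act on the receptor genes, 9 were tested, with 3 called higher, 2 lower and 4 not at all (median log2 change -0.17), beside 33.2% of all tested genes called. Cebpb, a factor of inflammatory and granulocyte genes, rose from 162 ± 22.4 to 452 ± 96.1 FPKM and Irf8 from 8.68 ± 0.189 to 21.2 ± 2.84 FPKM (SD, n = 3 in each group, limma log2 changes 1.46 and 1.19, adjusted p = 0.0024 and 8.1e-04). Klf4, a monocyte factor, fell from 17.9 ± 0.487 to 2.55 ± 0.834 FPKM (SD, n = 3 in each group, limma log2 change -2.44, adjusted p = 2.3e-04). Spi1, the PU.1 gene, was at 158 to 161 FPKM in vehicle and at 107, 217 and 226 FPKM in nanoparticle libraries 1 to 3, the same split of libraries as for Csf1r, and its log2 change was 0.12 over all libraries (limma adjusted p = 0.798) and 0.46 without library 1 (limma adjusted p = 2.6e-04). Without nanoparticle library 1, 4 of the 9 were called in each direction (64.8% of all tested genes were called there), and scaled by total reads 3 were higher and 5 lower (44.2%).

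Surface receptors such as Csf1r are cut off by membrane proteases. Of 4 genes of this step, 3 were tested and all 3 were called, beside 33.2% of all tested genes. Adam17, the main such protease, rose from 18.4 ± 0.704 to 31.6 ± 6.52 FPKM and Rhbdf2, which brings it to the surface, from 11.8 ± 0.787 to 26.7 ± 1.45 FPKM (SD, n = 3 in each group, limma log2 changes 0.73 and 1.11, adjusted p = 0.0179 and 5.2e-04). Adam10, a related protease, fell from 30.2 ± 1.52 to 14.0 ± 1.50 FPKM (SD, n = 3 in each group, limma log2 change -1.06, adjusted p = 9.8e-04). The call for Adam17 did not hold when libraries were scaled by total reads (limma adjusted p = 0.0833).

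**Figure D4:**
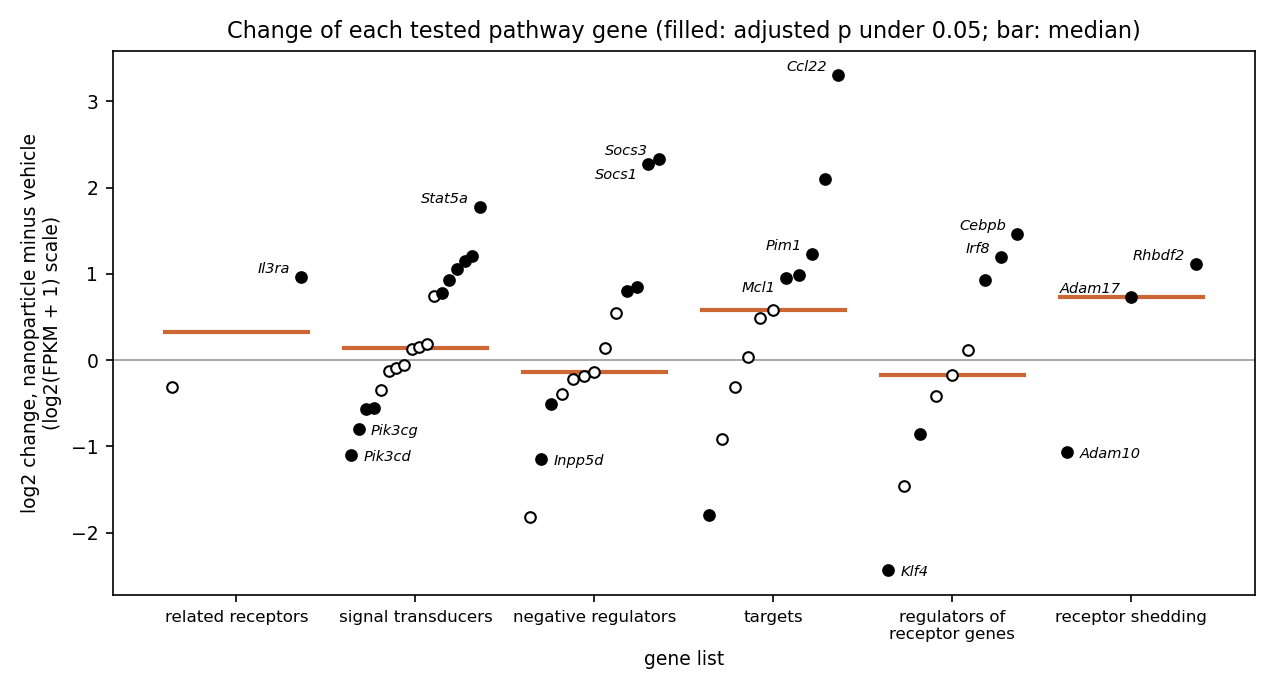
Log2 change (nanoparticle minus vehicle, log2(FPKM + 1) scale) of each tested gene in 6 pathway lists; filled points were called at an adjusted p under 0.05, orange bars are list medians, and the named genes are the called genes with the smallest adjusted p in each list. Every list holds points on both sides of 0, and list medians lie between -0.17 and 0.73.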

How the data were processed

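RNA of 6 samples was sequenced from NEBNext Ultra II libraries, per the labels' protocols. The submitters' processing notes name CASAVA, STAR 2.5, HTSeq, edgeR 3.16.5 and DESeq2 and the builds hg19 and mm10, without roles; strand and read length are not given in the sources used here. The authors deposited FPKM values, read per kilobase and scaled between libraries, in 2 tables whose 140388 values are identical. No label or header names the unit, which was inferred from the values. Multiplied by merged exon length (GENCODE M21, GRCm38) and 1 scale per library, 95.8% to 96.1% of values above 0 were within 0.01 of whole reads. For 407 genes with at least 200 reads, Csf1r and Csf2ra among them, a length was found from the values.

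The test was limma 3.58.1 in R 4.3.3 (lmFit, eBayes with trend, pseudocount 1, group as single term), checked on simulated data. The simulation changed only genes with many reads and held no deviating library. It therefore does not bear on genes with few vehicle reads or on nanoparticle library 1. Alternatives changed the pseudocount, filter, trend, scale, test, block and libraries. The 9 genes and all lists were chosen with earlier results of these data known. Genes named from lists are the up to 3 called with the smallest adjusted p, and partners of a member at 1 FPKM or more; Spi1, Kit, Kitl, Flt3l and single markers were named after their values were seen. Python 3.11.15, pandas 2.3.3, Biopython 1.88 and matplotlib 3.10.9 were used. Same-numbered libraries share only a number. The chi-square per degree of freedom between replicates was 2.86 or more, so none was counted as a duplicate.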

Additional observations from a re-analysis of the deposited data

How the results depend on the processing

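Csf2, Csf3 and Csf3r were called higher under every alternative in which they were tested. Wherever the FPKM filter applied, they passed it through the nanoparticle libraries alone and had to be higher there. These calls are therefore no independent support for the direction. A filter at 5 FPKM left out Csf2 and Csf3r, so 1 of the 9 genes was called. With the same FPKM sum in each library 5 were called, since Csf1r (-0.46) and Csf2ra (-0.44) became lower on a scale that moved the median of all genes to -0.38; there Csf1 was at -0.37 and Csf2rb2 at -0.17. With total reads, Csf1 (-0.25), Csf1r (-0.33), Csf2ra (-0.32) and Csf2rb2 (-0.043) turned negative and were not called. Leaving out 1 library in turn gave 3 to 5 called members and 2141 to 6923 called genes in place of 3550, with ranges of -0.056 to 0.14 for Csf1r, -0.21 to 0.10 for Csf2rb and -0.020 to 0.49 for Csf2rb2. The lowest count came without vehicle library 3 (2188 and 2226 without vehicle libraries 2 and 1), and the highest, with all 5 members, without nanoparticle library 1. With the replicate number as a replicate block 2785 genes and the same 3 members were called. Same-numbered libraries deviated together at correlations of 0.07, 0.11 and -0.06, so the numbers were not taken to pair them. The fitted change of low genes rests on the pseudocount, from 1.46 to 4.21 for Csf2 at a pseudocount of 0.1. Csf2 and Flt3 rest on 31 reads or fewer per library, which limits their precision.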

Other observations

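Ccl17, Cebpa and Dok2 of the pathway lists were chosen after their values were seen, because nanoparticle library 1 went against or far beyond libraries 2 and 3. Ccl17, a chemokine gene known to depend on GM-CSF, was at 2235 to 2579 FPKM in vehicle, at 1559.8 FPKM in nanoparticle library 1 and at 4707 and 5503 FPKM in libraries 2 and 3. Its log2 change was 0.49 over all libraries (limma adjusted p = 0.485) and 1.06 without library 1 (limma adjusted p = 1.4e-04). Cebpa, a factor of early myeloid cells, was at 79.7 to 87.5 FPKM in vehicle and at 13.0, 42.0 and 46.3 FPKM with nanoparticles (limma adjusted p = 0.0525). It was called lower without library 1 (limma adjusted p = 6.8e-05) and when scaled by total reads (limma adjusted p = 0.0181). Dok2, an adaptor that dampens receptor signaling, was at 82.2 to 84.0 FPKM in vehicle and at 7.87, 35.1 and 41.1 FPKM with nanoparticles (limma adjusted p = 0.0530), and it was called lower in the same alternatives (limma adjusted p = 4.0e-05 and 0.0212). Without library 1, 34.3% of all tested genes were called higher and 30.5% lower. Scaled by total reads, 10.4% were called higher and 33.8% lower.

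Among lymphoid markers Il7r, a cytokine receptor chain that myeloid cells can also carry, was at 86.8 to 92.1 FPKM in vehicle and at 190.4, 110.3 and 107 FPKM with nanoparticles. All nanoparticle libraries were above all vehicle libraries, beside 52.1% of all tested genes whose groups did not overlap in either direction. Its log2 change was 0.54 over all libraries (limma adjusted p = 0.128) and 0.27 without library 1 (limma adjusted p = 0.0037). Without that library 34.3% of all tested genes were called higher.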
